A study of Mus musculus with 12 samples.

Results

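The interval described here is a stretch of mouse chromosome 7, from 103700000 to 104540000 in the build mm9. By the rule that set it, it holds the 3′ part of Tenm4 (formerly Odz4) and then Gab2. RNA bound to chromatin was measured along it by RNAchIP-seq, in which RNA that comes down with HP1γ (the product of Cbx3) is sequenced beside the RNA of the chromatin input. A region is a stretch of RNA enriched in the HP1γ immunoprecipitate (IP) over input, and members are all regions that overlap the interval. It held 41 of the 10013 regions of untreated cells and 19 of the 2609 regions found after PMA, 60 of 12622 in all. The interval was chosen by the number of PMA regions it holds, so counts and density of regions in it are a description and were not tested.

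The cells descend from mouse embryonic fibroblasts that are knock-out for HP1γ and were recomplemented for its expression, and every library used here is from such recomplemented cells. The series has 12 libraries, in triplicate for each of 4 groups: input or HP1γ IP of untreated cells, and input or HP1γ IP of cells given 100 nM of the phorbol ester PMA, in DMSO, for 30 min. The labels name no clone, do not say whether untreated cells received DMSO, and give no mock IP, so recovery with HP1γ and unspecific recovery cannot be told apart. Each condition is represented by 1 list of joined regions, with no values or read depth per library. No region therefore has a replicate error, and no difference between the lists was tested.

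HP1γ is a chromodomain protein of the heterochromatin protein 1 family that binds methylated histone H3 and is also found over transcribed genes. PMA activates protein kinase C. Tenm4 encodes teneurin-4, a large transmembrane protein of cell adhesion known from the developing nervous system and from mesenchyme, and is a very long gene made up mostly of introns. Gab2 encodes a scaffolding adaptor that is phosphorylated downstream of receptor tyrosine kinases and cytokine receptors and recruits the phosphatase SHP2 and the kinase PI3K.

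In the RefSeq gene table of GRCm38, Tenm4 is followed by the small nuclear RNA gene Gm22226, by Nars2 (the mitochondrial asparaginyl-tRNA synthetase), by Gab2, and then by Usp35 (a deubiquitinase), Kctd21, Alg8 (a glucosyltransferase of N-glycosylation) and Ndufc2 (a subunit of respiratory complex I). The same table places the long noncoding RNA gene Gm15413 among those that lie within the bounds of Tenm4. Both Tenm4 start sites listed in RefSeq are on the plus strand, so rising coordinates run from 5′ to 3′ of Tenm4. That table is of another build and was used for names and order only. The ends of the genes in mm9 were not used here, and regions are given by position, with no exon, intron or UTR assigned. The lists carry no strand, so RNA of Tenm4 and RNA of a gene inside it cannot be told apart.

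Nearly all regions lay at the Tenm4 end of the interval. In untreated cells, 40 of 41 regions fell between 103702075 and 104031870, a dense stretch of 329.8 kb. After PMA, 18 of 19 fell between 103702443 and 103989304, which is 286.9 kb. No region of either list lay in the next 459.2 kb, from 104031871 to 104491084. The remaining 2 regions lay near the far end of the interval. The untreated one (104491085 to 104491639, 555 bp, fold enrichment of IP over input 3.66) ended 48.4 kb before the end of the interval. The PMA one (104532926 to 104533973, 1048 bp, fold 3.08) ended 6.03 kb before it, and they did not overlap. The untreated one rested on peaks of replicates 1 and 3 only, and the PMA one on peaks of replicates 2 and 3. Their −log10 q, the peak caller's adjusted significance, was 1.63 and 2.80. Whether these 2 regions belong to Gab2 or to a gene after it was not determined. The lists thus show 1 cluster at the Tenm4 end, and at the Gab2 end no more than 1 region each, so it is called the Tenm4 cluster here. Fold enrichments are the authors' values per region.

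At its lower edge the cluster followed a long run without PMA regions. The rule set the lower limit of the interval, so it need not be where the cluster begins in untreated cells. The last PMA region before the interval ended at 87350965 and the first inside it began at 103702443, with folds of 2.79 and 2.95. In untreated cells 1 further region lay just outside (103675255 to 103675747, fold 3.45), 24.3 kb below the interval, and the first inside had the lowest fold of the 41, at 2.28. Above the interval, the next untreated region began at 105045625 (fold 3.15) and the next PMA region at 106046259 (fold 4.50).

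Joined at gaps of at most 10 kb, the untreated regions formed 15 groups and the PMA regions 8. Of untreated regions in the interval, 36 of 41 had another region of their list within 10 kb, where 63.7% of the whole list had one. After PMA it was 14 of 19, where 42.1% of the whole list had one. The choice of a crowded interval raises both counts, so nothing is read from them. Within the dense stretch the median gap between neighbouring regions was 4370 bp in untreated cells (67 to 37965 bp) and 7578 bp after PMA (367 to 66347 bp).

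The first part of the cluster, from 103702075 to 103737258, held 6 regions of each list. After PMA these 6 formed a single group of 34.69 kb (103702443 to 103737131), with folds of 2.82 to 3.30 and widths of 608 to 1286 bp. The untreated regions there formed 3 groups of 2 regions each, with folds of 2.28 to 4.03. Regions of both lists met at 3 places. The PMA region at 103702443 to 103703629 had a fold of 2.95, against 3.52 for the untreated region at 103702500 to 103704013, which with 1514 bp and 6 member peaks was among the widest of its list in the interval and had the most member peaks, the peaks of single replicates that were joined into a region. The PMA region at 103718342 to 103719341 had a fold of 2.82 and its untreated partner 3.33. At 103736306 to 103737131 the values were close, 3.30 after PMA and 3.27 in untreated cells. The other PMA regions of the group began at 103705337 (fold 3.06), 103711528 (3.00) and 103726488 (2.95), and lay 1323, 2933 and 6087 bp from the nearest untreated region. In this part both lists held the same number of regions, while over the rest of the dense stretch the untreated list held 34 and the PMA list 12. The whole lists are of unequal length, with 10013 untreated and 2609 PMA regions.

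Beyond a single shared region at 103747919 to 103748793 (fold 3.76 after PMA and 3.52 untreated), the next part was sparse. Untreated cells had 1 region of low fold (2.89) at 103783512 to 103784246, a group of 3 regions between 103800823 and 103811682 with folds of 3.60, 4.44 and 3.71, and 1 region at 103832716 to 103833287 (fold 3.78). After PMA there was 1 region in this part, at 103810903 to 103811951. It had the highest fold of the PMA regions in the interval, 5.74, with 9.77 for its mean −log10 q (the peak caller's adjusted significance, read as a mean over member peaks), against 3.71 and 3.11 for its untreated partner (103811168 to 103811682). It was 1049 bp wide and the partner 515 bp, and the partner lay wholly inside it. Higher −log10 q after PMA was common to partners over the whole lists. The 1431 PMA regions with a partner had a median of 5.59 and their strongest untreated partners 4.15, against 5.51 and 4.04 in the interval.

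The fullest untreated group lay in the middle of the dense stretch, together with a PMA group of 6 regions, as many as in the first PMA group. In untreated cells 14 regions between 103843800 and 103896679, over 52.88 kb, had folds of 3.08 to 5.62 and covered 21.85% of the span. Only 15 of the 5509 groups of the untreated list had more regions. After PMA 6 regions between 103843413 and 103868800, over 25.39 kb, had folds of 3.13 to 4.44 and covered 31.39% of the span. Of the 1929 PMA groups 10 had more regions, and 4 had 6, this one included. The median group of either list had 1 region. The interval was chosen for its many PMA regions, so these ranks are a description and nothing is read from them. Each of these 6 PMA regions had an untreated partner, meaning a region of the other list that it overlapped. In the whole PMA list 54.8% of regions had one.

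The first 3 PMA regions of this group followed each other closely, and each overlapped an untreated region over most of its length. The first, at 103843413 to 103844577, had a fold of 3.16 against 3.08 untreated. The second, at 103845037 to 103846557, had 3.44 against 3.57, and its start and end lay 18 and 13 bp below those of the untreated region, so that the overlap was 98.0% of their joint length. With 1521 and 1516 bp these were among the widest regions of the interval. The third, at 103846925 to 103847708, had 3.56 against 3.42 and the highest mean −log10 q of the PMA regions here, 10.1 against 4.03 untreated. Partners differed in this direction over the whole lists too, as given above.

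Further on, the widest PMA region of the interval (103857427 to 103860008, 2582 bp) spanned 2 untreated regions, of 633 and 576 bp, and joined 5 member peaks, the most of any PMA region here. Its fold was 4.44 and its mean −log10 q 9.74, against folds of 3.56 and 3.79 for the untreated pair. The strongest untreated region of the interval came next, at 103863778 to 103864719. It had a fold of 5.62, a mean −log10 q of 10.7 and member peaks from all 3 replicates, and no PMA region overlapped it: the nearest began 1065 bp away, at 103865785. That PMA region had 3.13, and the untreated region it overlapped (103865475 to 103866794, 1320 bp) had 3.55. The last of the 6, at 103867847 to 103868800, had 3.63 against 3.49. A lone PMA region of low fold (2.86) at 103887356 to 103887988 lay 219 bp from an untreated region of fold 3.40.

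The part of the cluster toward its upper end was filled mainly in the untreated list, which is the longer list over the genome (10013 regions against 2609). Between 103907267 and 103974422 untreated cells had 10 regions in 4 groups, among them 103907267 to 103908461 (fold 4.54), 103911344 to 103912222 (4.23) and 103973423 to 103974422 (5.56, the second highest, with a mean −log10 q of 5.76). The PMA list had 1 region there, at 103954336 to 103955167, with the lowest PMA fold of the interval (2.77), 198 bp from an untreated region and overlapping none. At the end of the PMA cluster both lists had regions again: the PMA region at 103988469 to 103989304 (fold 3.49) overlapped 2 untreated regions with folds of 4.07 and 3.77. A PMA region at 103980289 to 103980890 (3.42) had no partner. The last untreated pair, at 104027347 to 104028084 (4.71) and 104031398 to 104031870 (4.01), lay 38042 and 42093 bp from the nearest PMA region.

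Fold enrichment in untreated cells was higher toward the 3′ side. By bins of 50 kb from the start of the interval, the median untreated fold was 3.33, 2.89, 3.60, 3.54, 3.71, 3.85 and 4.36, with 7, 1, 7, 11, 4, 8 and 2 regions. Spearman's rho between position and fold was 0.44 over the 40 untreated regions of the dense stretch and 0.23 over the 18 PMA regions. These are descriptions over neighbouring regions, which share libraries and may share a transcript. Between width and the number of member peaks rho was 0.76 in untreated cells and 0.49 after PMA. A region is joined from its member peaks, so more of them can widen it by construction. Between width and fold rho was -0.02 in untreated cells and 0.23 after PMA.

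An overlap of 1 bp or more with the untreated list was found for 12 of the 19 PMA regions, which is 63.2% (Clopper-Pearson 95% interval 38.4 to 83.7, which covers counting error only). In the whole PMA list the share was 54.8%, which is inside those bounds. The bounds take regions as independent, while neighbouring regions may share a transcript, so they serve as no test. Of the 41 untreated regions, 14 overlapped a PMA region, or 34.1% (20.1 to 50.6), where the whole list had 15.5%. An interval chosen for many PMA regions offers more of them to overlap. The 4 other fullest 1 Mb windows of the PMA list, on chromosomes 1, 10 and 14, held 18 to 22 PMA and 30 to 63 untreated regions, and there 25.4% to 29.5% of untreated and 44.4% to 78.9% of PMA regions overlapped. Nothing is called particular to the Tenm4 cluster from these shares.

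Overlapping regions were stronger after PMA in some places and in untreated cells in others. Over the 12 PMA regions with a partner, the difference in fold from the strongest partner, PMA minus untreated, had a median of 0.06 and ran from -0.58 to 2.03. The largest was that of the region at 103810903. The PMA fold was the higher in 7 of 12, where it was so in 43.5% of the 1431 such regions of the whole list. The PMA region was the wider in 9 of 12, where 70.9% were so in the whole list. The folds of the 12 pairs had a Pearson r of 0.44 and a Spearman rho of 0.50, given as a description only.

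**Figure D1:**
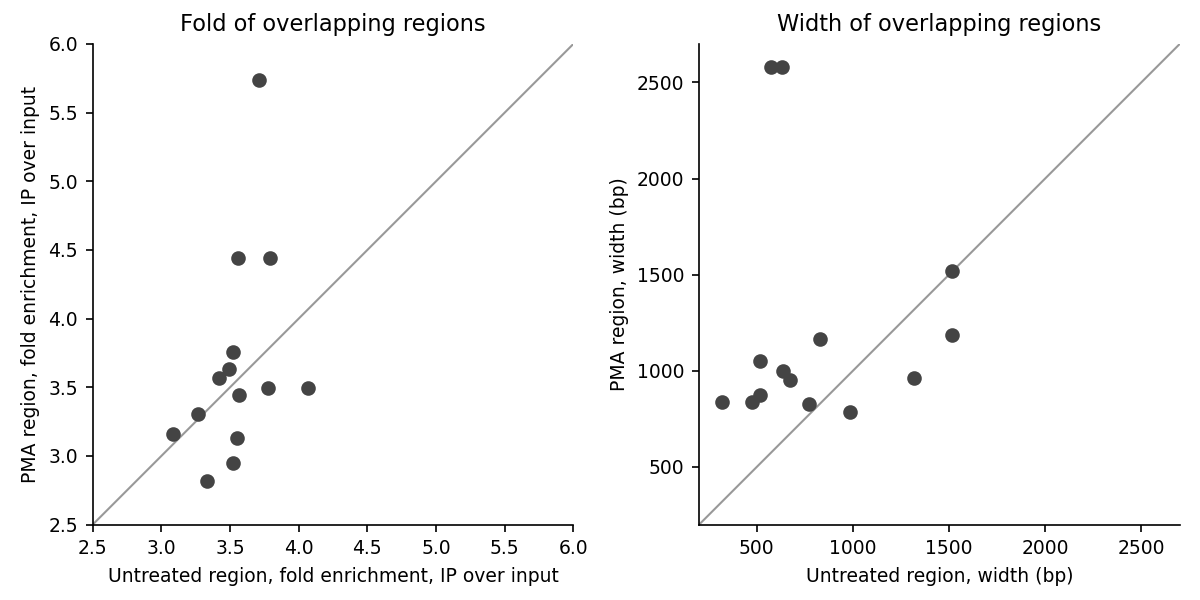
Each point is 1 of the 14 overlaps between a PMA region (vertical axis) and an untreated region (horizontal axis) of the interval, by fold enrichment of IP over input on the left and by width in bp on the right, with the grey line marking equal values. By fold, the PMA region at 5.74 against 3.71 lies furthest from the line, and the PMA region of 2582 bp appears beside both of its untreated partners.

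In untreated cells, regions without a partner had a similar median fold to those with one, and a lower −log10 q. The 27 untreated regions with no PMA partner had a median fold of 3.60 (2.28 to 5.62) and the 14 with one 3.54 (3.08 to 4.07). The 5 highest untreated folds of the interval (4.44 to 5.62) all belonged to regions without a partner. In the whole untreated list only 15.5% of regions had a partner, so nothing is read from this. The median mean −log10 q of the 27 was 3.39, against 4.04 for the 14, and they had 3.41 member peaks on average against 3.93. After PMA, the 7 regions without a partner had folds of 2.77 to 3.42 and a median mean −log10 q of 2.80. The 12 with one had folds of 2.82 to 5.74 and a median of 5.51. The ranges overlap in both lists. A higher −log10 q with a partner was seen over the whole lists too. PMA regions with a partner had a median of 5.59 there, against 4.24 for all PMA regions. Their strongest untreated partners had 4.15, against 3.59 for all untreated regions.

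Over the whole interval, the far-end regions included, most regions were wider than the median of their list, and most had a fold below the median of their list. The median width was 633 bp in untreated cells (95% order-statistic interval 555 to 735), with 28 of 41 above the median of the whole untreated list, 528 bp. After PMA it was 954 bp (784 to 1165), with 15 of 19 above the 780 bp of the whole PMA list. The median fold was 3.57 (3.49 to 3.77) in untreated cells, with 17 of 41 above the list's 3.65, and 3.16 (2.95 to 3.56) after PMA, with 5 of 19 above the list's 3.50. For fold, the median of the whole list lies inside these bounds in both lists. In the dense stretch alone the medians were 633.5 bp and 3.56 for the 40 untreated regions and 914.5 bp and 3.23 for the 18 PMA regions. On the rest of chromosome 7 the median folds were 3.90 and 3.57. In the 4 other fullest 1 Mb windows of the PMA list, median widths were 539 to 640 bp untreated and 642 to 1134 bp after PMA. Median folds there were 2.79 to 3.76 and 2.65 to 3.52. The values of the interval lie within these ranges, so neither width nor fold is called particular to the Tenm4 cluster. The fold sets IP against input in bulk libraries, so it gives recovery relative to input and not the amount of RNA. Whether recovery differs from cell to cell cannot be told from it.

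Each region names the peaks that were joined in it, by replicate, and needs at least 3 of them. In untreated cells 36 of the 41 regions had a member peak from all 3 replicates, or 87.8%, where 91.9% of the whole list did. Regions with 1 peak from each replicate made up 20 of the 41, or 48.8%, against 69.9% of the whole list. Replicate 1 gave 2 or more peaks to 39.0% of the regions here, against 18.3% in the whole list. After PMA the member peaks came from replicates 2 and 3 only, as in the whole PMA list, and every one of the 19 regions had peaks from both. Replicate 2 gave 34 member peaks and replicate 3 gave 30. With 2 replicates a region needs 2 peaks from one of them, so the lists were built under unequal conditions. When the member peaks of untreated replicate 1, 2 or 3 were left out and 3 were still required, 10, 17 and 16 of the 41 untreated regions remained, or 24.4%, 41.5% and 39.0%. In the whole untreated list 15.0%, 19.9% and 23.6% remained. The 20 regions with 1 peak per replicate are lost by construction whichever replicate is left out, so these counts are no comparison with the 19 PMA regions.

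Member peaks carry running numbers that rise along the chromosomes in every replicate, with 0 breaks of order, so the numbers between 2 points count the peaks called there in a replicate, whether or not they were joined into a region. In the dense stretch the numbers of untreated replicates 1, 2 and 3 covered 188, 117 and 96 peaks. Those of PMA replicates 2 and 3 covered 129 and 200. Untreated and PMA replicates overlapped. Per 100 kb these were 57.0, 35.5 and 29.1 untreated and 45.0 and 69.7 after PMA, each over the span of its own list. The rest of the chromosome was far sparser: over all of chromosome 7 the same replicates had 3.53, 1.51 and 1.16, and 1.94 and 3.37 peaks per 100 kb. The dense stretch was thus 16.1, 23.5 and 25.1 times as full as the chromosome in untreated replicates and 23.2 and 20.7 times after PMA. The excess was seen in each of the 5 replicates that the lists name. The stretch was chosen on these same peaks, so this is a description.

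**Figure D2:**
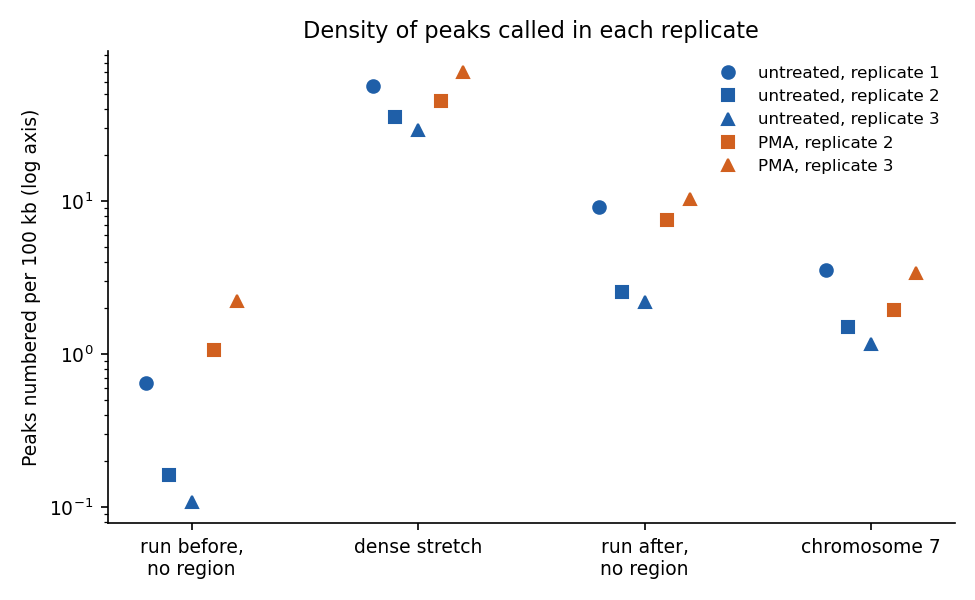
Points give the number of peaks called per 100 kb (vertical log axis) in each of the 5 replicates, blue for untreated and orange for PMA, over the run without regions before the cluster, the dense stretch, the run without regions after it, and chromosome 7 from its first to its last member peak. The dense stretch stands at 29.1 to 69.7 peaks per 100 kb in all 5 replicates, above every other stretch; the runs without regions differ in length between lists and replicates.

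Set against all peaks numbered in a replicate, the shares of the dense stretch overlapped between the conditions. Of every 1000 peaks, untreated replicates 1, 2 and 3 had 2.15, 2.87 and 2.87 there. PMA replicates 2 and 3 had 2.61 and 2.17, with the PMA values inside the untreated range, whose lower end is untreated replicate 1 alone. Without that replicate both PMA values lie below the untreated ones. Over the span that both lists cover, chosen after seeing the data, it was 1.96, 2.60 and 2.66 untreated, and 2.61 and 2.17 after PMA. Without untreated replicate 1, PMA replicate 3 lies below the untreated values there and PMA replicate 2 between them. The difference was not tested. In the joined lists the untreated stretch held 40 regions and the PMA stretch 18. These are 0.399% of the 10013 untreated and 0.69% of the 2609 PMA regions. The interval was chosen for its PMA regions, so neither counts nor shares are read as a change in the dense stretch. Of the peaks called there, untreated replicates 1, 2 and 3 had 29.8%, 38.5% and 44.8% joined into regions. For PMA replicates 2 and 3 it was 24.8% and 14.0%. In the whole lists these shares were 13.6%, 27.1% and 31.3%, and 8.85% and 4.34%.

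**Figure D3:**
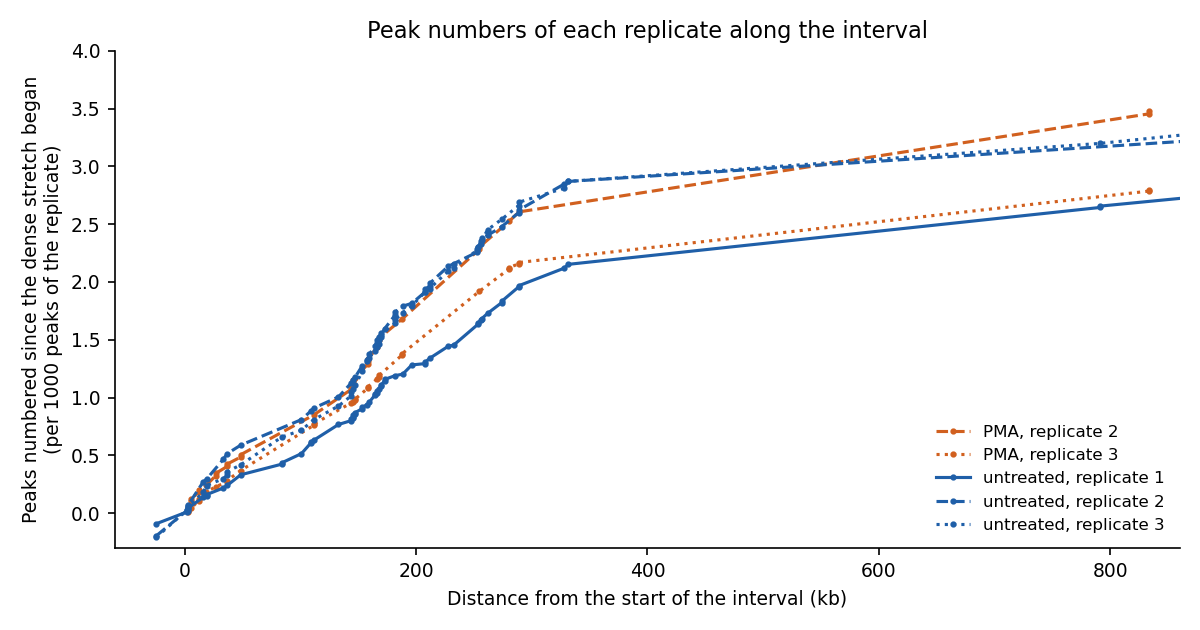
For each replicate the line follows the peaks numbered since the start of the dense stretch, per 1000 peaks of that replicate (vertical axis), against distance from the interval's start in kb; points are member peaks of regions, and lines between points are drawn straight. All 5 lines climb along the whole dense stretch, to between 2.15 and 2.87, and flatten after it.

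Peaks were also called where the PMA list has no region. Within the dense stretch, 4 runs of 25.1 to 66.3 kb held no PMA region, yet PMA replicates 2 and 3 had 65 and 117 peaks in them, or 35.1 and 63.2 per 100 kb, below their 45.0 and 69.7 for the dense stretch as a whole. In the longest of these runs, from 103887989 to 103954335, the untreated list had 8 regions. PMA replicates 2 and 3 had 29 and 49 peaks called there. Untreated replicates 1, 2 and 3 had 40, 22 and 20 from the first to the last member peak of those regions. The absence of joined PMA regions from this part is therefore not an absence of called peaks in the PMA replicates. Where these single peaks lie and how strong they are is not given in the lists.

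Above the last dense-stretch region of each list, called peaks were fewer but present. These runs hold no member peak of the replicate counted, and they differ in length. From 104031871 to 104491084, untreated replicates 1 and 3 had 42 and 10 peaks, or 9.15 and 2.18 per 100 kb, and untreated replicate 2 had 26 up to its next member peak, over 1014 kb. PMA replicates 2 and 3 had 41 and 56 peaks from 103989305 to 104532925, or 7.54 and 10.3 per 100 kb, a run that takes in the last untreated pair of the dense stretch and the untreated region at 104491085. These are 1.70 to 3.88 times the values for chromosome 7, and lie below the dense stretch by 5.96 to 13.8 times. Below the cluster, the long runs without regions had 0.11 to 0.65 peaks per 100 kb in untreated replicates, over 3718 kb, and 1.06 and 2.23 after PMA, over 16350 kb. The untreated run goes from 99957600 to 103675254 and the PMA run from 87350966 to 103702442. The PMA run takes in the untreated regions at 103675255 and 103702075, so these values are not compared between the lists. The untreated run also leaves out the stretch from 103675255 up to the interval. From the untreated region there to the first inside, peak numbers of untreated replicate 1 rose from 72301 to 72310. Those of replicate 2 rose from 33622 to 33631 and those of replicate 3 from 27816 to 27824. Peaks were thus called in single replicates of both conditions on this side of the interval.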

How the data were processed

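RNA of chromatin input and HP1γ IP was sequenced from directional libraries read for 65 bp from a single end, per the labels' protocols. MACS2 2.1.0, STAR 2.5.0a, cutadapt 1.11 and the build mm9 are named, without roles, per the submitters' processing notes. The sources used here do not give settings for calling or joining peaks. The authors deposited 2 region lists. Their fold (a ratio of IP over input), −log10 q and score are deposited values per region, read as means over the member peaks; for fold this was not tested. Read depth is unknown for every library, which limits what a missing region can show, and the PMA list names no peak of replicate 1.

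Regions overlapping the interval were grouped at gaps of at most 10 kb within a list, and partners overlap by at least 1 bp. Starts are printed 1-based. Peaks called were counted from member-peak numbers, on the reading that a caller numbers peaks in order along the genome. The results are descriptions, with no test. Shares have exact Clopper-Pearson and medians order-statistic 95% intervals, which cover counting error only and take regions as independent. Regions named are, per list, the highest by fold, width, −log10 q and member peaks, the ends of groups, and all PMA regions with their partners. Members and rules were chosen with earlier results of these data known. Alternatives were another gap, overlap or q threshold, merging within 1 kb, and leaving out each replicate. Grouping and overlap were tested on simulated lists. Python 3.11.15, pandas 2.3.3, numpy 2.4.6, scipy 1.17.1 and matplotlib 3.10.9 were used.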

Additional observations from a re-analysis of the deposited data

How the results depend on the processing

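Of 48 alternative values for 16 results, 30 stayed within 1.5 times the count or within the interval of the median or share, and 18 did not. Leaving out 1 untreated replicate gave 10 to 17 untreated regions, 7 to 10 untreated groups, a median width of 827 to 864 bp, and 26.3% to 42.1% of PMA regions with a partner. Of these, the 10 groups and the 42.1%, both without untreated replicate 2, stayed within those bounds, as did the share of untreated regions with a partner (37.5% to 50%). Without PMA replicate 2 there were 0 PMA regions, and without PMA replicate 3 there were 2, in 2 groups, with a median fold of 3.94 and a median width of 2052 bp. These lists hold fewer regions by construction, since 3 member peaks are still required. The untreated counts then lie below the 19 PMA regions. The PMA median fold without replicate 3, from 2 regions, lies above the untreated 3.57. Neither is read as a turned order of the lists, because the loss of regions is by construction. A largest gap of 20 kb gave 5 untreated groups, a gap of 5 kb gave 15 PMA groups, and limiting the list to a mean q of 0.001 or below (on the −log10 scale) gave 5 PMA groups. Counts of called peaks over the span that both lists cover were added after seeing the data. No paired analysis was possible because no result comes from a test, and peak counts exist for only 2 shared replicate numbers: replicates 2 and 3 had 2.87 and 2.87 per 1000 peaks untreated and 2.61 and 2.17 after PMA in the dense stretch. Depth is unknown, so a missing region shows only that 3 peaks were not joined there.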
